A study of Mus musculus with 10 samples.

Results

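The 10 genes described here encode the enzymes that build phosphatidylcholine and phosphatidylethanolamine in the cell, and Mfsd2a, a plasma membrane transporter of lysophosphatidylcholine. They were taken by symbol, which the files write in lower case (chka, chkb, pcyt1a, chpt1, cept1, pemt, etnk1, etnk2, pcyt2 and mfsd2a), and all 10 were found among 14812 gene entries. The set was chosen by pathway around Chka and Mfsd2a, which had been selected on their change in UMI counts between ZT0 and ZT12 in these same libraries. The values of these 2 genes over that pair of times and over the whole day are therefore given as a description, without a p-value. Both were tested in the other comparisons, and both enter the counts of members called in the closing section.

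Transcripts were counted in single hepatocytes, the parenchymal cells of the liver, to follow expression through the day and along the liver lobule. The cells came from C57BL/6 male mice aged 3 months that ate regular chow freely, were anaesthetised with ketamine and xylazine, and had the liver perfused with collagenase before a Percoll gradient. The labels name no mutation and no other drug in any group. Zeitgeber time (ZT) counts hours from lights on. ZT0 and ZT12 each had 3 libraries, marked A, B and C, and ZT6 and ZT18 each had 2, marked A and B. The labels do not give the number of mice behind a library, so p-values measure the spread between these libraries, which may in part be technical.

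Phosphatidylcholine, the main phospholipid of cell membranes, is made in the liver by a pair of routes. In the CDP-choline route, choline kinase (Chka, Chkb) phosphorylates choline, Pcyt1a joins phosphocholine to CTP, and Chpt1 or Cept1 moves the head group onto diacylglycerol. In the other route, Pemt methylates phosphatidylethanolamine, whose own head group is prepared by ethanolamine kinase (Etnk1, Etnk2) and Pcyt2. Hepatocytes send phosphatidylcholine into lipoproteins and bile. Blood enters the lobule at the portal vein and leaves it by the central vein, and hepatocytes beside these vessels, called periportal and pericentral, differ in their metabolism.

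The 250 bases before the start site are shown for Chka, Mfsd2a and Etnk2, because these were the members whose levels differed most between times. Sequences are those of RefSeq on GRCm38.p6, read 5′ to 3′ on the strand of the gene. Capitals mark matches, on either strand, to the letters of a CCAAT box (CCAAT), a GC box (GGGCGG), an E-box variant (CACGTT) or a nuclear receptor site (AGGTCA).
Chka, chr19:3851523-3851772, plus strand: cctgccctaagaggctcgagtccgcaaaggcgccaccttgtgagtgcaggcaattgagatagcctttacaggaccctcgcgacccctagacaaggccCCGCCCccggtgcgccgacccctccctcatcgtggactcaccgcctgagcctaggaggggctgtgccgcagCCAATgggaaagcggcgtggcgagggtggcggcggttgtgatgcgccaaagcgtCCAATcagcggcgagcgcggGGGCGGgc
Mfsd2a, chr4:122961189-122961438, minus strand: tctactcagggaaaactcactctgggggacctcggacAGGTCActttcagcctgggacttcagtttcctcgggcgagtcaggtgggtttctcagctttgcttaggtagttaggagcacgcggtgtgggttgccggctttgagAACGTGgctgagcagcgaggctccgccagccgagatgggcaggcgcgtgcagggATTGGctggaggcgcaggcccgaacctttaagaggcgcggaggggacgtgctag
Etnk2, chr1:133363322-133363571, plus strand: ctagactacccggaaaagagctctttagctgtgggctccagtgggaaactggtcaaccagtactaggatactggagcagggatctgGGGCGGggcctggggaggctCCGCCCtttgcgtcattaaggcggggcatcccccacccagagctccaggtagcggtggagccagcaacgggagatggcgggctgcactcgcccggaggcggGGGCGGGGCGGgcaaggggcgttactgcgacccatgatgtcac

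In the Chka window the CCAAT letters began 82 and 28 bases before the start site, and the GC box letters 153 and 8 bases before it. The Mfsd2a window held the receptor site letters 213 bases, the E-box variant 108 bases and the CCAAT letters 54 bases before the start site. The Etnk2 window held 4 GC box matches, at 164, 144, 43 and 38 bases, of which the last and the one before it share 1 base. None of the 3 windows held a canonical E-box (CACGTG), a D-box (TTANNTAA) or a TATA box (TATAAA). Among 32851 windows of the same length in the RefSeq table, 33.85% held CCAAT, 32.74% GGGCGG, 3.848% CACGTT, 14.02% AGGTCA, 6.021% CACGTG, 5.434% TTANNTAA and 12.37% TATAAA. A promoter entry was found for 9 of the 10 members, all but Pcyt2. In the GENCODE M21 annotation of GRCm38, Chka spans chr19:3851773-3894369 on the plus strand, Mfsd2a chr4:122946850-122961188 on the minus strand and Etnk2 chr1:133363572-133380336 on the plus strand. All 3 are protein coding, and each printed window ends at the base before its gene.

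The libraries held 710 to 2860 cells and 1454623 to 7144803 UMIs, that is, distinct tagged molecules, with 1588 to 2662 UMIs in the median cell. Levels are given in CPM, the UMIs of a gene per 1000000 UMIs of its library. All 10 members passed the minimum mean of 3 CPM, with 797 (Chkb) to 12305 (Pemt) UMIs over the 10 libraries. The 6 hepatocyte markers summed to 35345 to 64495 CPM in a library, led by Alb. Macrophage markers summed to at most 6.46 CPM and endothelial markers to at most 16.7 CPM, and Clec4f, Csf1r, C1qa, C1qb, Clec4g and Ptprb had no UMI in any library. The clock genes Arntl and Dbp passed the rhythm test, with fitted peaks at ZT21.6 and ZT9.46, and Per2 did not (edgeR adjusted p = 0.0536). The pericentral gene Glul was lower in the periportal zone by a log2 fold change of -4.05 ± 0.21 (SE) and the periportal gene Sds was higher by 3.13 ± 0.13.

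Over the day, Chka was high at ZT0 and ZT18 and low at ZT6 and ZT12, Mfsd2a was lowest at ZT0 and highest at ZT12, and Etnk2 was highest at ZT12. The rhythm test, which fits UMI counts in edgeR with a wave of 24 h on a log2 scale, called Etnk2 at an adjusted p under 0.05. It was 1 of the 8 members taken by pathway and not on their own change over time, and the test called 5.14% of all 8908 genes. Earlier results of these data were known when these 8 were chosen, so the call is not independent of them. The other 7 of these 8 were not called.

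Chka, the choline kinase that opens the CDP-choline route, measured 103, 224 and 184 CPM in the ZT0 libraries A, B and C and 114 and 86.8 CPM in the ZT18 libraries. It measured 24.2 and 19.3 CPM at ZT6 and 27.5, 13.9 and 12.6 CPM at ZT12. All 5 libraries of ZT0 and ZT18 lay above all 5 of ZT6 and ZT12. The means ± SD were 170.2 ± 61.5 (ZT0, n = 3), 21.7 ± 3.44 (ZT6, n = 2), 17.97 ± 8.28 (ZT12, n = 3) and 100.3 ± 19.1 CPM (ZT18, n = 2), and the mean at ZT0 was 9.47 times that at ZT12. ZT0 and ZT18 overlapped, and the ZT6 libraries lay within the ZT12 range, so the order within each pair is not larger than the spread. From ZT0 to ZT12 the log2 fold change was -3.43 ± 0.33 (SE), and the fitted wave had a log2 amplitude, the distance from mean to peak, of 2.06 with its peak at ZT21.8.

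The comparison of ZT18 with ZT6 sets other libraries against each other than those of ZT0 and ZT12, on which Chka was selected. Its SE and p-value still use a spread estimated over all 10 libraries, ZT0 and ZT12 included. Results over all 4 times were known when the genes were chosen, so the comparison is not independent of that choice. Chka was higher at ZT18 by a log2 fold change of 2.27 ± 0.38 (edgeR adjusted p = 0.00616, n = 2 against 2, without overlap). It was the 1 member of 10 called in that comparison, against 3.79% of all genes (2.35% higher and 1.45% lower). The call was lost with a single library left out on either side, at adjusted p = 0.0844 without ZT6A, 0.0950 without ZT6B and 0.0512 without ZT18A, while the log2 fold change stayed between 2.09 and 2.44 over all 10 fits that leave out 1 library. Where 1 library was left at a time, it was assumed to vary like the libraries of the other times. The index codes in the labels carry the number 7 in both ZT6 libraries and 4 in both ZT18 libraries, so index number and time cannot be told apart here. Erythroid markers (5 of 6 listed were in the files, led by Alas2) summed to 99.0 and 361 CPM at ZT18 and to 76.5 and 87.8 CPM at ZT6. Mitochondrially encoded genes took 21.5% and 19.3% of the UMIs at ZT18 and 15.9% and 15.96% at ZT6. The part of either in the result was not tested.

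Chkb, the other choline kinase, did not pass a test of time. It measured 16.8, 20.1 and 19.8 CPM at ZT0 and 15.8, 16.1 and 16.6 CPM at ZT12. It measured 21.9 and 25.1 CPM at ZT6 and 13.8 and 16.4 CPM at ZT18. The ZT12 libraries all lay below the ZT0 libraries, by a log2 fold change of -0.36 ± 0.19 that did not pass the test (edgeR adjusted p = 0.396), and the rhythm test gave an adjusted p of 0.190. The ZT18 libraries lay below the ZT6 libraries, by -0.55 ± 0.23, which was not called (edgeR adjusted p = 0.213). Exons of Chkb overlap those of Gm44502 on the same strand in the annotation, so their reads cannot be told apart and the Chkb values are uncertain.

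**Figure D1:**
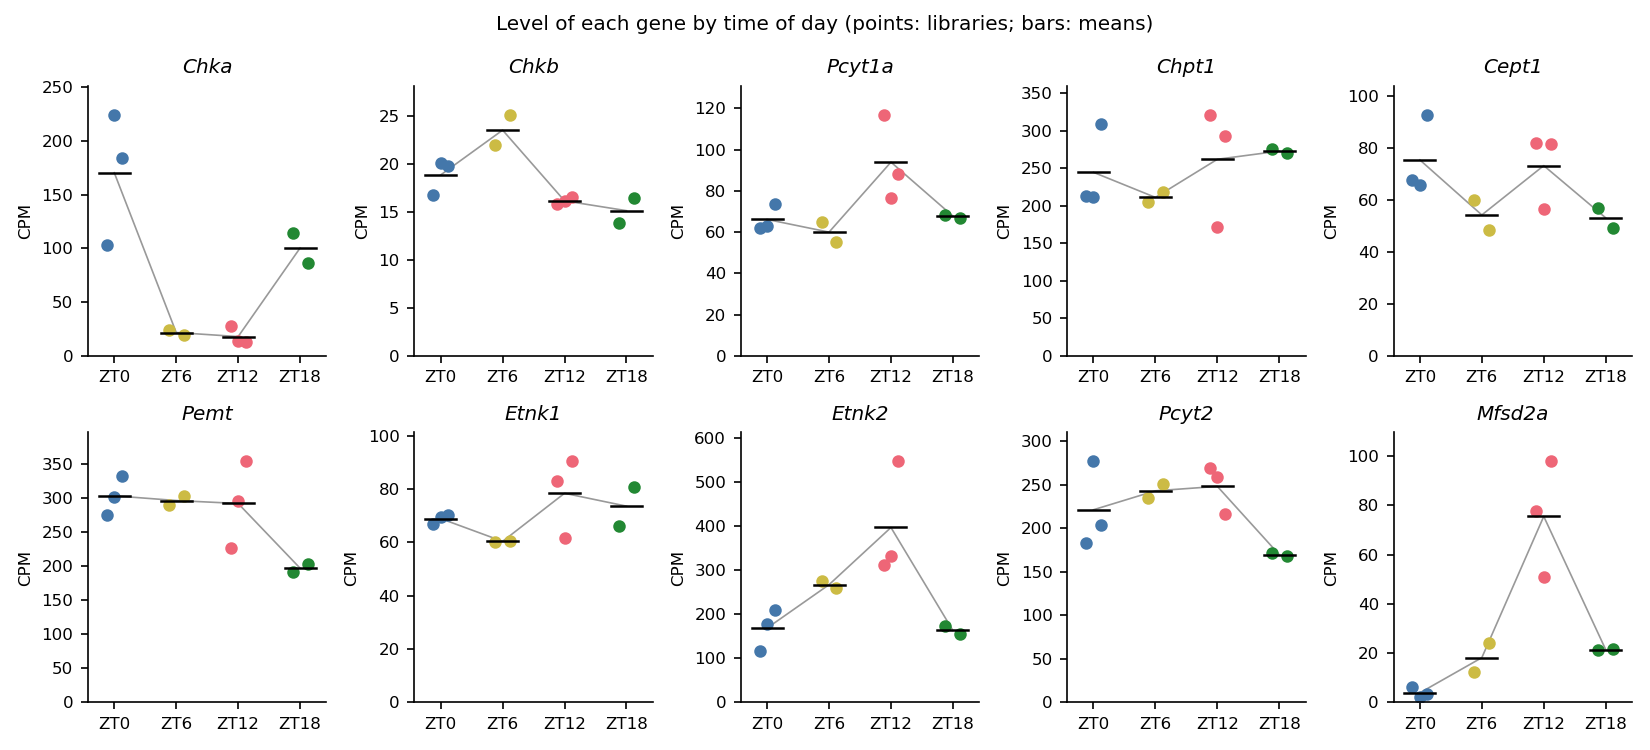
Level of each member in CPM (vertical axis, from 0) in each library by ZT; points are libraries, bars are means of 2 or 3 libraries. Chka is high at ZT0 and ZT18, Mfsd2a and Etnk2 are highest at ZT12, and the ZT18 libraries of Pemt and Pcyt2 lie below all others.

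The later CDP-choline enzymes did not pass any test of time. Pcyt1a, the cytidylyl transferase regarded as the regulated step, measured 62.0, 63.2 and 73.4 CPM at ZT0 and 117, 76.7 and 88.4 CPM at ZT12. All 3 ZT12 libraries lay above those of ZT0, ZT6 (64.8 and 55.2 CPM) and ZT18 (68.5 and 67.1 CPM), but the log2 fold change of 0.36 ± 0.19 from ZT0 to ZT12 was not called (edgeR adjusted p = 0.392). Chpt1, the choline-specific phosphotransferase, ranged from 172 to 321 CPM over the libraries, and its lowest and highest libraries were both from ZT12. Cept1, which uses both choline and ethanolamine head groups, ranged from 48.3 to 92.7 CPM, with means of 75.4 ± 15.0 at ZT0 and 53.1 ± 5.37 at ZT18. The rhythm test gave adjusted p = 0.456 for Pcyt1a, 0.593 for Chpt1 and 0.834 for Cept1.

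Pemt, the methyltransferase of the other route, did not pass a test of time. It measured 275, 302 and 333 CPM at ZT0, 290 and 303 CPM at ZT6, and 226, 296 and 354 CPM at ZT12. The ZT18 libraries, at 191 and 203 CPM, lay below the other 8. The log2 fold change from ZT6 to ZT18 was -0.51 ± 0.23 and did not pass the test (edgeR adjusted p = 0.246).

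Among the ethanolamine genes, Etnk2 rose from ZT0 to ZT12. Etnk2, an ethanolamine kinase abundant in liver, measured 117, 179 and 210.2 CPM at ZT0 and 311, 333 and 547 CPM at ZT12. It measured 275 and 259 CPM at ZT6 and 172 and 154 CPM at ZT18. All ZT12 libraries lay above all ZT6 libraries, which lay above all those of ZT0 and ZT18, while ZT0 and ZT18 overlapped. The mean ± SD was 169 ± 47.3 CPM at ZT0 and 397 ± 130 CPM at ZT12 (n = 3 each), and the log2 fold change was 1.09 ± 0.23 (edgeR adjusted p = 0.0162). The fitted wave had a log2 amplitude of 0.63 and peaked at ZT9.99 (edgeR adjusted p = 0.0245). Both tests were run on a gene chosen with earlier results of these data known. Without ZT12C, the highest library, the log2 fold change was 0.85 and the call was lost (edgeR adjusted p = 0.0691). The rhythm call was lost without ZT0A, ZT12B, ZT12C, ZT18A or ZT18B, at adjusted p from 0.0505 to 0.0700, and without both ZT18 libraries, at 0.0805.

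Etnk1, the other ethanolamine kinase, measured 66.8 to 70.2 CPM at ZT0, 61.7 to 90.4 CPM at ZT12, 60.1 and 60.7 CPM at ZT6, and 66.3 and 80.8 CPM at ZT18. It did not pass the test from ZT0 to ZT12 (log2 fold change 0.02 ± 0.18, edgeR adjusted p = 0.969). Pcyt2, which makes CDP-ethanolamine, measured 183, 277 and 204 CPM at ZT0, 235 and 251 CPM at ZT6, and 269, 259 and 216 CPM at ZT12. Its ZT18 libraries, at 172 and 168 CPM, were the lowest of the 10, but the log2 fold change of -0.45 ± 0.26 from ZT6 was not called (edgeR adjusted p = 0.370).

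Mfsd2a, the lysophosphatidylcholine transporter, measured 6.11, 2.23 and 3.38 CPM at ZT0, from 35, 15 and 20 UMIs. It measured 77.7, 51.1 and 97.9 CPM at ZT12, against 12.4 and 23.95 CPM at ZT6 and 21.4 and 21.6 CPM at ZT18. The ZT12 libraries lay above all others and the ZT0 libraries below all others, while both ZT18 libraries lay between those of ZT6. The mean at ZT12, 75.6 ± 23.5 CPM (SD, n = 3), was 19.3 times the mean at ZT0, 3.90 ± 1.99 CPM. The log2 fold change was 4.10 ± 0.38, and the fitted wave had a log2 amplitude of 2.03 with its peak at ZT12.3. From ZT6 to ZT18 the log2 fold change was 0.35 ± 0.42 (edgeR adjusted p = 0.707), and without ZT6A it was -0.14.

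Of the 8 members that were not selected on their change from ZT0 to ZT12, 1 was called, Etnk2, against 3.44% of all genes (1.70% lower and 1.74% higher). The median log2 fold change was -0.01 over the 10 members, which ran from -3.43 to 4.10, and -0.00 over all genes tested. Library letters paired ZT0 with ZT12, but the main tests of time did not use the letter. A block by letter was also applied to the ZT6 and ZT18 libraries. With that block Etnk2 was again called, while the count over all genes went from 306 to 504. From ZT6 to ZT18 the median was 0.15 for the members and -0.01 for all genes.

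Along the lobule, Mfsd2a, Chka and Etnk1 were higher on the portal side and Chpt1 on the central side. Cells of each library were ordered by 16 landmark genes, none of them a member, and split into 3 zones of equal cell number, of which the outer 2 are the pericentral and periportal zones. Of the 10 members, 5 were called between zones, where 24.6% of 8907 genes were called: Mfsd2a, Chka, Etnk1 and Pcyt2 higher in the periportal zone (11.9% of all genes) and Chpt1 lower (12.7%). The median log2 difference was 0.13 for the members and -0.01 for all genes. With library totals alone in place of TMM scaling, the median of all genes moved by -0.0997, and 27.8% rather than 48.3% of called genes were higher in the periportal zone.

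Mfsd2a had the largest zone difference of the 10. In the pericentral zone it measured 0.479 CPM in the lowest library, 4.18 at the median and 52.2 in the highest, and in the periportal zone 3.66, 33.6 and 170.3 CPM. It was higher in the periportal zone in 10 of 10 libraries, by a log2 fold change of 2.07 ± 0.18 (edgeR adjusted p = 2.6e-11). Chka measured 1.57, 41.7 and 145 CPM (lowest, median, highest) in the pericentral zone and 14.7, 72.9 and 304 CPM in the periportal zone, and was higher there in 10 of 10 libraries, by 1.04 ± 0.11 (edgeR adjusted p = 2.4e-09). Both ranges cover all 4 times.

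Etnk1 and Chpt1, which did not pass a test of time, differed between zones in opposite directions. Etnk1 measured 35.0, 53.8 and 66.7 CPM (lowest, median, highest) in the pericentral zone and 73.9, 80.5 and 125 CPM in the periportal zone, so the zones did not overlap even across times. The log2 fold change was 0.84 ± 0.08 (edgeR adjusted p = 3.3e-10, higher in 10 of 10 libraries). Chpt1 measured 229, 341 and 496 CPM in the pericentral zone and 129, 182 and 222 CPM in the periportal zone, again without overlap. It was lower in the periportal zone in 10 of 10 libraries, by -0.83 ± 0.06 (edgeR adjusted p = 1.2e-12).

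Pcyt2 was higher in the periportal zone by a log2 fold change of 0.22 ± 0.07, in 9 of 10 libraries (edgeR adjusted p = 0.0210). That call did not hold with DESeq2 (adjusted p = 0.0527), with library totals alone (0.12, edgeR adjusted p = 0.212), without ZT0C (0.0884), without both ZT18 libraries (0.0602) or in cells with at least 3000 UMIs (0.192). Etnk2 differed by 0.16 ± 0.07 and was not called (edgeR adjusted p = 0.0855), though it was with a minimum mean of 20 CPM (0.0459) or without ZT12A (0.0263). Chkb, Pcyt1a, Cept1 and Pemt differed by 0.09 ± 0.12, -0.03 ± 0.08, -0.06 ± 0.08 and 0.07 ± 0.07, with edgeR adjusted p from 0.572 to 0.819, and the sign for Chkb, Pcyt1a and Pemt changed under other settings. When the library block was replaced by the letter, the spread between times was left in the error. Chka (edgeR adjusted p = 0.369) and Pcyt2 (0.350) were then no longer called. Etnk1 (6.3e-05) and Chpt1 (0.000149) were, and so was Mfsd2a, close to the threshold (0.0479).

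**Figure D2:**
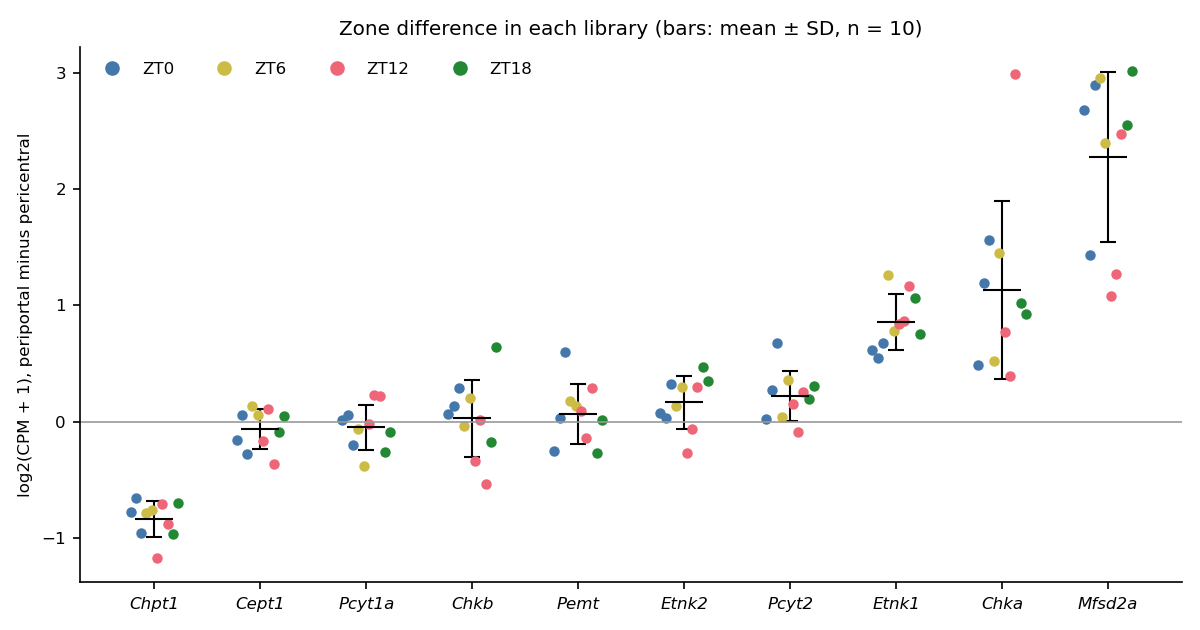
Difference in log2(CPM + 1) after TMM scaling, periportal minus pericentral (vertical axis), for each member in the 10 libraries, coloured by time; bars are the mean ± SD. All 10 points of Mfsd2a, Chka and Etnk1 lie above 0 and all 10 of Chpt1 below 0, and 1 ZT12 library of Chka stands at 2.99.

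Other quantities moved with the zones. Mitochondrially encoded genes took a larger share of UMIs in the periportal zone in 10 of 10 libraries, for example 17.99% against 14.6% in ZT0A. The 5 cholangiocyte markers, from cells of the bile ducts beside the portal vein, summed to 13.0 to 218 CPM in the periportal zone and to 1.57 to 22.8 CPM in the pericentral zone, with Spp1 as the highest. The part of either in the zone differences of Mfsd2a, Chka and Etnk1 was not tested. In cells with at least 3000 UMIs these 3 genes and Chpt1 kept their calls.

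In 8 layers of equal cell number from the central to the portal side, Mfsd2a, Chpt1, Chka and Etnk1 varied most. Mean Mfsd2a rose from 10.9 CPM in layer 1 to 24.6 in layer 3, 43.0 in layer 6 and 56.4 in layer 8. Mean Etnk1 rose from 45.7 CPM in layer 1 to 94.1 in layer 8, and mean Chpt1 fell from 417 CPM in layer 1 to 273 in layer 3 and 175 in layer 8. Chka went from 45.8 CPM in layer 1 to 111 in layer 6, 99.8 in layer 7 and 108 in layer 8. Relative to its own mean over the layers, Mfsd2a spanned 0.257 to 2.05, Chpt1 0.696 to 1.65, Chka 0.556 to 1.45 and Etnk1 0.645 to 1.33. Pemt spanned 0.925 to 1.08 and Etnk2 0.9498 to 1.05, and were close to level. These layer values are a description with no test.

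**Figure D3:**
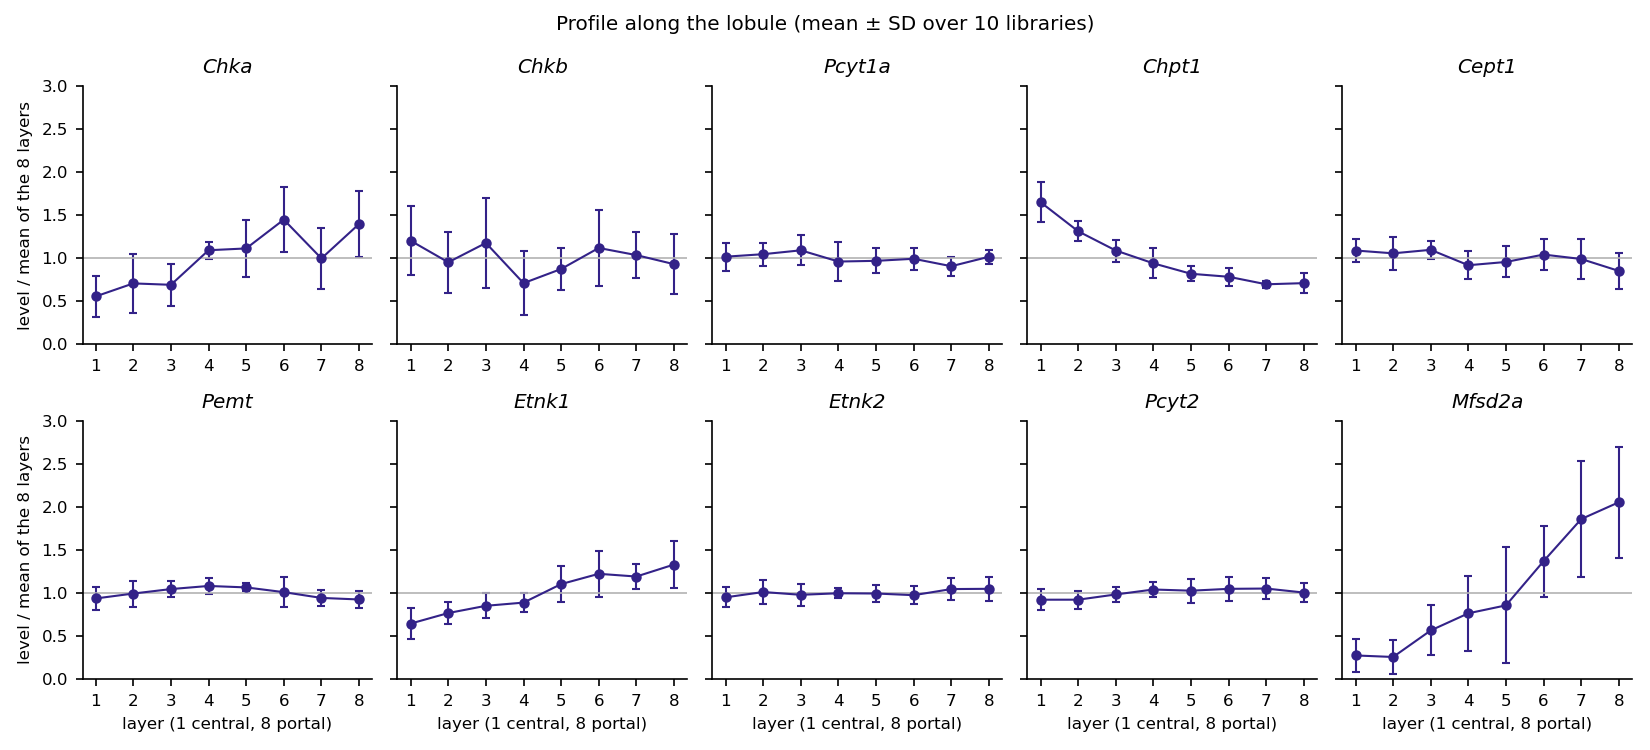
Level of each member in 8 layers, from central (1) to portal (8), divided by its mean over the layers of the same library; points and bars are the mean ± SD over 10 libraries. Mfsd2a climbs from 0.275 to 2.05, Chpt1 falls from 1.65 to 0.710, and Pemt and Etnk2 stay near 1.

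Chka was higher in the periportal zone at each time. Its pericentral and periportal means were 112.5 and 236 CPM at ZT0 and 65.5 and 123 CPM at ZT18, and they were 14.4 and 25.8 CPM at ZT6 and 11.7 and 23.1 CPM at ZT12. The mean zone difference in log2(CPM + 1) was 1.08 ± 0.55 (SD) at ZT0, 0.97 ± 0.07 at ZT18, 0.99 ± 0.66 at ZT6 and 1.38 ± 1.41 at ZT12, and the test of a zone difference that follows time gave an edgeR adjusted p of 0.967. The wide spread at ZT12 comes with ZT12C, where 1 pericentral UMI and 13 periportal UMIs were counted. The ratio of the levels was 12.5, with an exact 95% interval of 1.88 to 532 for counting error.

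For Mfsd2a the low counts at ZT0 limit the same comparison. At ZT0 the pericentral zone held 2, 2 and 1 UMIs in the libraries A, B and C and the periportal zone 25, 8 and 17 UMIs. The ratios of the levels were 11.2 (exact 95% interval 2.79 to 97.4), 4.36 (0.870 to 42.1) and 19.3 (3.02 to 806), for counting error only. At ZT12 the zones held 29.6 to 52.2 CPM and 67.5 to 170.3 CPM, so the lowest pericentral library at ZT12 stood above the highest periportal library at ZT0, at 11.6 CPM. The mean zone difference in log2(CPM + 1) was 1.61 ± 0.76 at ZT12, where the level peaked, 2.34 ± 0.79 at ZT0, 2.68 ± 0.40 at ZT6 and 2.78 ± 0.33 at ZT18. The pseudocount of 1 CPM shrinks such differences at low levels, most of all at ZT0, where the pericentral zone held 0.479 to 1.03 CPM. The place of ZT0 among the times is therefore not read from these means. In ZT18A the middle zone held 31.1 CPM, above the 27.3 CPM of the periportal zone and the 4.08 CPM of the pericentral zone.

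The test of a zone difference that follows time called none of the 10 members with edgeR or DESeq2, and 0.0337% of all genes (3 of 8907, with 541 at an unadjusted p under 0.05) with edgeR. Mfsd2a came nearest, at an unadjusted p of 0.0011 and an adjusted p of 0.369. It was called without a filter on low genes (edgeR adjusted p = 0.0181), without ZT12C (0.0354), with the letter as a block on the zone difference (0.0259) and in cells with at least 3000 UMIs (0.0464). Over the 21 alternatives its adjusted p ranged from 0.0181 to 0.99997, so whether the Mfsd2a gradient changes with time was not settled at this depth. For the other 9 members the adjusted p was between 0.882 and 0.983.

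**Figure D4:**
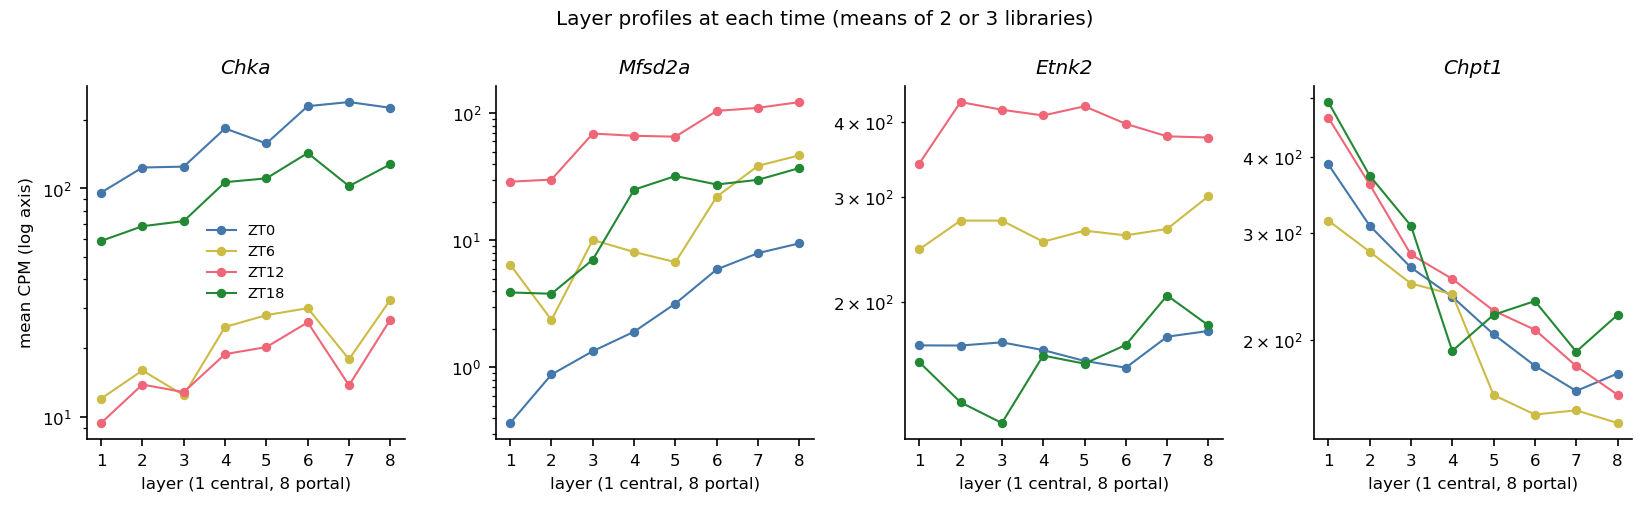
Mean CPM (log axis) of Chka, Mfsd2a, Etnk2 and Chpt1 in 8 layers from central (1) to portal (8), one line for each time, each the mean of 2 or 3 libraries. Chka and Mfsd2a are higher in layer 8 than in layer 1 at every time, Chpt1 is lower, and Etnk2 is highest at ZT12 in every layer.

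Genes around these members were taken from 7 lists: other head-group enzymes, choline uptake and oxidation, methyl donor supply, diacylglycerol supply, acyl-chain remodelling, and breakdown and export of phosphatidylcholine. Of 61 listed genes 44 were tested, and 6 were called from ZT0 to ZT12, 4 higher and 2 lower (median log2 fold change 0.06), against 3.44% of all genes (1.74% higher and 1.70% lower). Diacylglycerol supply held 3 called genes of 7 tested, all higher at ZT12, and the acyl-chain list none of 3. These lists too were drawn up with earlier results known, and nothing is read from their counts. Lpin1, a phosphatidate phosphatase that yields diacylglycerol, measured 43.9 ± 4.94 CPM at ZT0 and 637 ± 205 CPM at ZT12 (log2 fold change 3.71 ± 0.27). Its relative Lpin2 rose by 1.24 ± 0.22, and Gpcpd1, which splits glycerophosphocholine, rose by 2.67 ± 0.37. Slc44a1, a choline transporter, fell by 1.15 ± 0.19 on the log2 scale and Selenoi, an ethanolamine phosphotransferase, fell by 0.90 ± 0.23. These genes were named because they passed this test, so no p-value is given for them.

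The rhythm test also called 6 of the 44, against 5.14% of all genes. ZT18 against ZT6 (3.79% of all genes) called 1, Gpcpd1, lower by a log2 fold change of -1.87 ± 0.44 (edgeR adjusted p = 0.0337). Gpcpd1 was named because it passed, so this p-value was under 0.05 by that choice. Between zones 16 of the 44 were called, 6 higher and 10 lower in the periportal zone, against 24.6% of all genes (11.9% higher and 12.7% lower), and the zone-dependent rhythm called none. The largest zone differences among the 16 called were those of Pltp, the phospholipid transfer protein, at -2.08 ± 0.18, and Pctp, the phosphatidylcholine transfer protein, at -0.74 ± 0.10, both in the direction of Chpt1, followed by Pla2g6, a phospholipase, at -0.69 ± 0.13. Gnmt, a methyltransferase that draws on the same methyl donor as Pemt, was higher in the periportal zone by 0.56 ± 0.06, Pisd, which makes phosphatidylethanolamine in mitochondria, by 0.53 ± 0.13, and Pnpla6, a phospholipase, by 0.60 ± 0.23. These 6 genes were named because they passed the zone test, so their edgeR adjusted p, at most 0.0498, was under 0.05 by that choice.

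**Figure D5:**
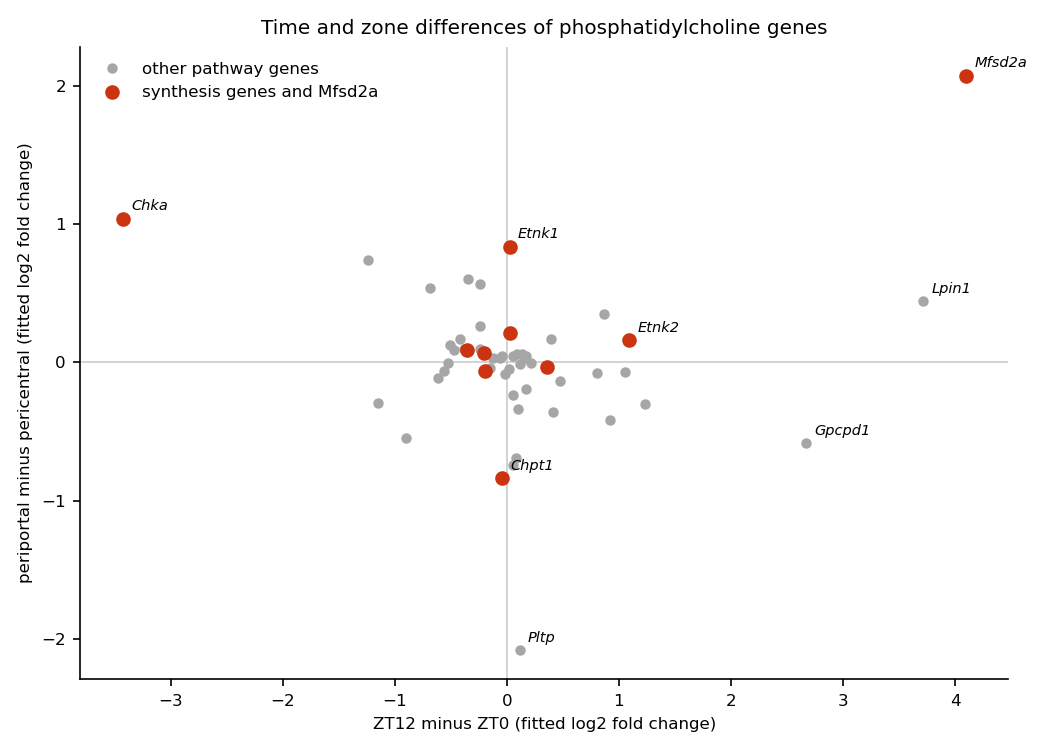
Fitted log2 fold change from ZT0 to ZT12 (horizontal axis) and from the pericentral to the periportal zone (vertical axis) for the 10 members (red) and the other pathway genes tested (grey). Mfsd2a lies at 4.10 and 2.07, Chka at -3.43 and 1.04, and Lpin1 and Gpcpd1 are the other pathway genes farthest from 0 in time.

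Over the 10 libraries, the genes whose log2 level was most like that of Chka were Pter (Pearson r = 0.975), Lamtor1 (0.952), Cyb5b (0.940), Fpgs (0.937) and Clpx (0.933), among 4340 genes that averaged 20 CPM or more. Clpx had means of 216 CPM at ZT0 and 179 CPM at ZT18, against 95.2 CPM at ZT6 and 41.1 CPM at ZT12. Most like Mfsd2a were Usp2 (0.965), Gna12 (0.949), Ak4 (0.947), Alas1 (0.944) and Noct (0.940). Usp2 had means of 87.8 CPM at ZT12, 5.45 CPM at ZT0, and 14.8 and 16.5 CPM at ZT6 and ZT18. These correlations share libraries, depth and 4 times, were the highest found by a search, and describe likeness only.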

How the data were processed

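The authors deposited raw UMI counts per gene and cell for droplet libraries of a 3' kit from 10x (chemistry version 2), per the labels. The submitters' processing notes name Cell Ranger, mm10 and hg19, without saying how each was used. The counts are whole numbers with totals of 1048 to 10001 UMIs per cell. The filter on cells is not given in the sources used here. Cells are numbered without barcodes, 0 cells shared a whole UMI profile, and doublets were not called.

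Counts were summed per library, or per library and zone, and tested with edgeR 4.0.16 (R 4.3.3; glmQLFit and glmQLFTest, TMM) keeping genes that averaged 3 CPM or more. Adjusted p-values are Benjamini-Hochberg over all these genes, with a threshold of 0.05. Rhythm was a 2-df test of the cosine and sine of 24 h, and the contrasts of times came from 1 mean per time over all 10 libraries. Zones were the outer 2 of 3 equal parts of the cells of a library, ordered by the mean z-score of 8 periportal minus 8 pericentral landmark genes, with the library as a block. Printed CPM are not scaled by TMM, and zone differences in single libraries used TMM and a pseudocount of 1 CPM. The scripts were tested on simulated data.

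Library letters were taken to pair ZT0 with ZT12, since deviations of same-lettered libraries from their group means correlated at 0.284 (A), 0.512 (B) and 0.626 (C) across genes and their index codes carry the same number. Alternatives were DESeq2 1.42.0, library totals alone, other filters on genes and cells, other zones and landmarks, blocks, and leaving out libraries. Leaving out both ZT18 libraries was added after the data were seen. The members and lists were chosen with earlier results of these data known. All 10 members are named. Of the other lists, the 3 genes with the largest change each way among those called are named. The 5 genes most like Chka and Mfsd2a are named as well. Some genes of these lists are not reported here.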

Additional observations from a re-analysis of the deposited data

Results flagged for a closer look

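The zone difference of Chka in ZT12C stood apart from those of the other 9 libraries. It was 2.99 in log2(CPM + 1), periportal minus pericentral, and the next highest was 1.56, in ZT0C. It rests on 1 pericentral and 13 periportal UMIs. The gap to the nearest library was 0.549 of the range, above the Dixon critical value of 0.466 for 10 values. The 10 members were examined this way, and chance marks about 1 in 20 such groups. Without ZT12C the zone call of Chka remained.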

How the results depend on the processing

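Of 935 recomputed member values, 888 kept their direction and their side of the threshold, 17 lost the call, 6 gained it and 24 changed sign. The values for rhythm and zone-dependent rhythm are sizes without a sign, so for those only the side of the threshold could change. Depth limits Mfsd2a at ZT0 and Chka at ZT6 and ZT12 within zones. The counts of members called, Chka and Mfsd2a included, ranged from 2 to 3 for rhythm, 2 to 3 for ZT12 against ZT0, 0 to 1 for ZT18 against ZT6, 4 to 6 for zone and 0 to 1 for zone-dependent rhythm with 1 library left out, and the counts of genes from 228 to 465, 214 to 314, 50 to 494, 1970 to 2123 and 0 to 36. In the rhythm and ZT12 against ZT0 counts, Chka and Mfsd2a, selected on their change over time, were always among those called. Etnk2 was the only other member in those counts. With the letter as a replicate block, 749 genes were called for rhythm, 504 for ZT12 against ZT0 and 730 for ZT18 against ZT6. Letters pair neither ZT6 with ZT18 (r = 0.113) nor all 4 times (r = -0.116 for ZT0A and ZT6A). With 2 libraries at each of ZT6 and ZT18, the A and B pairs must give the same r, so it is 1 value. Same-lettered ZT12 and ZT18 libraries correlated at 0.204 (A) and 0.144 (B). Their index codes carry different numbers, so whether letters pair these times is not settled. In place of the library the letter gave 771 genes and 3 members between zones, and as a replicate block on the zone difference 32 genes and 1 member (Mfsd2a). The replicate block changed no other call of a member. Chkb, at a mean of 18.2 CPM, is not tested at a minimum of 20 CPM. The main counts were 458, 306, 338, 2194 and 3 genes.

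Rhythm counts were 792 with DESeq2, 710 without a filter, 283 at a minimum of 20 CPM and 231 without both ZT18 libraries. Without a filter 469 genes differed between ZT12 and ZT0 and 595 between ZT18 and ZT6, and at 20 CPM 199 in the latter. In cells with at least 3000 UMIs 1211 genes differed between zones. Zone-dependent rhythm counts were 0 with DESeq2 and at 20 CPM, 5 with library totals alone or 4 zones in place of 3, 42 without a filter (Mfsd2a among them), 1 with odd-numbered landmarks or without both ZT18 libraries, and 32 in cells with at least 3000 UMIs (Mfsd2a among them). Fewer genes or cells enter the stricter filters, and otherwise the cause was not tested. With library totals alone the median of all genes moved by 0.137 for ZT12 against ZT0, and 66.7% rather than 50.7% of called genes were higher.

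The sign changed for values that had not passed a test. From ZT0 to ZT12, Chpt1 was 0.0939 with library totals alone and 0.000497 without the 5% of cells with the most UMIs. With 1 library left out it ranged from -0.254 to 0.153 and was above 0 without ZT0C or ZT12B. Pcyt2 ranged from -0.0655 to 0.220 and was below 0 without ZT0A, ZT0C, ZT12A or ZT12B. Etnk1 ranged from -0.0488 to 0.140 and was below 0 without ZT0C, ZT12A or ZT12C. From ZT6 to ZT18, Cept1 was -0.0355 with library totals alone, ranged from -0.0553 to 0.156 with 1 library left out, and was below 0 without ZT6B or ZT18A. Mfsd2a ranged from -0.136 to 0.917 and was below 0 without ZT6A. Between zones, Chkb was -0.0158 with library totals alone and -0.0731 with odd-numbered landmarks. Pemt was -0.0316 with library totals alone, -0.0153 in cells with at least 3000 UMIs, and from -0.000365 (without ZT0C) to 0.108 with 1 library left out. Pcyt1a was 0.0276 with 4 zones in place of 3, 0.0366 with odd-numbered and 0.0243 with even-numbered landmarks, and 0.113 in cells with at least 3000 UMIs.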
